A study of Homo sapiens with 6 samples.

Results

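The 27 genes described here are splicing and mRNA processing factors outside the Sm core, measured by RNA-seq in AGS cells with and without SSD. They were taken from the annotation of a table of 1099 genes, as those in the KEGG spliceosome pathway or under the gene ontology terms for mRNA splicing via the spliceosome, mRNA processing or RNA splicing. The rule found 32 genes, of which the 5 Sm core proteins SNRPB, SNRPD1, SNRPD2, SNRPD3 and SNRPG were set aside. Of the 27 that remained, 9 lie in the KEGG spliceosome pathway. AGS is an established human gastric adenocarcinoma line, and SSD is saikosaponin-D, a plant triterpenoid saponin. One group of 3 libraries received vehicle and the other group of 3 libraries received SSD, both for 24 h, and all libraries came from this single line with no added allele. The dose is not settled, since the treatment protocol of the labels gives 10 μM and the study's methods give a lower concentration. The protocol fields of the labels also name a prostate cancer line and a coded compound. The sample titles give vehicle and SSD, and the column names of the counts give AGS. The treated columns carry a code and the number 10 in place of the name SSD. They were matched to SSD as the only treatment of the series. The labels do not say whether the 3 libraries of a group came from separate cultures, so the p-values measure the spread between libraries, which may be technical.

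The spliceosome removes introns through small nuclear ribonucleoproteins (snRNPs), each a small nuclear RNA with a ring of Sm or LSm proteins and its own set of further proteins. U1 marks the 5′ splice site, U2 the branch point, and the U4/U6.U5 tri-snRNP brings in the catalytic RNA, after which helicases remodel and finally release the machinery. SR proteins and hnRNP proteins bind exons and introns and steer which splice sites are used, and the exon junction complex stays on the spliced mRNA as a mark read during export, translation and decay.

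The genes of the deposited table held between 30.1% and 33.1% of the TPM of each library (a read share corrected for gene length). Estimated read counts over its genes summed to between 3084338 and 4640117 per library, which is part of a library and not its depth. Its genes are those with the smallest p among 11289 genes in the authors' own comparison of the same libraries, so that a gene had to differ to be listed, and a count of changed members says little without the same count over the table. On the scale used here no gene of the table had a log2 fold change between −0.0328 and 0.2065, an interval centred on 0.0869 and not on 0. The 8 epithelial marker genes looked for are not in the table, and of 15 markers of other cell types, prostate included, it lists COL1A1, at 14.2 ± 1.48 TPM with vehicle and 12.3 ± 2.43 TPM with SSD (SD, n = 3, adjusted p = 0.146). The cell type named by the labels could therefore not be checked with these genes.

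Each log2 fold change compares SSD with vehicle, so a negative value means lower with SSD, and carries 1 standard error. The test was the quasi-likelihood F-test of edgeR, and p was adjusted by Benjamini and Hochberg's method over 11289 genes. Libraries were set on a whole-library scale, the typical ratio of count to TPM. TMM, the usual scaling, assumes that most genes are unchanged, which a table of changed genes does not meet. It placed the log2 fold changes 0.072 higher at the median, and 62.5% of the table stayed below 0. A second alternative, chosen after the data were seen, moved the whole-library scale so that the empty interval is centred on 0. Each library is read as shares of its total, so a change in cell number or in total RNA per cell cannot be seen here.

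Before the values, the sequences that bear on them are shown. The study designed qPCR primers for 6 of the 9 KEGG spliceosome members, and the pairs for SNU13 and PRPF38B are printed because these are the 2 of the 9 that fell. The SNU13 pair lies in 3 of 13 GENCODE transcripts and spans 151 bases with 2 exon junctions, whereas the PRPF38B pair lies in 4 of 5 transcripts and spans 132 bases with 0 junctions. The RNA-seq counts cover all transcripts of a gene, so they and these primers do not read the same molecules.
SNU13 forward: cagccatgactgaggctgat
SNU13 reverse: cccctgttgagggttttggt
PRPF38B forward: ttctcgcggtctgggtttc
PRPF38B reverse: ggaccctactccatcgaacg

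Promoters were searched for CACGTG, the palindromic E-box hexamer read by MYC-MAX and other basic helix-loop-helix factors, in the 250 bases before each RefSeq start. It occurred in 3 of the 22 members with an entry (13.6%), in 12.7% of the table's genes and in 7.73% of all genes with an entry. The 3 members are GEMIN7, which fell, and ADAR and RRAGC, which rose, and their stretches around the hexamer (in capitals) are shown because these are called members that share it (RefSeq, GRCh38.p14).
ADAR, chr1:154628014-154628058, minus strand: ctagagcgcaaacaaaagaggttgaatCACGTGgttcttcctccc
GEMIN7, chr19:45079136-45079194, plus strand: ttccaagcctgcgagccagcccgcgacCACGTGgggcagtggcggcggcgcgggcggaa
RRAGC, chr1:38859852-38859911, minus strand: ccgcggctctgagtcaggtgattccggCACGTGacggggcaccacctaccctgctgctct
The hexamer begins 34 bases before the RefSeq start in ADAR, 32 in GEMIN7 and 112 in RRAGC. The stretches end before the GENCODE gene, whose start lies further upstream than the RefSeq start in ADAR and RRAGC. CASC19, PABPC1, POLR2I, SAP18 and SNU13 had no entry. These matches are letters in a window, and binding was not measured.

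The snRNP and related factors UBL5, SNU13, PRPF38B and GEMIN7 and the long noncoding RNA CASC19 fell. The RNA-binding proteins MBNL3, PABPC1 and ADAR, the speckle protein SRRM2 and the GTPase RRAGC rose. The other 17 did not pass an adjusted p of 0.05. All 27 passed the filter on low counts, which removed 0 of the 1099 genes. The 5 that fell are 18.5% of the members against 19.5% of the table, and the 5 that rose are 18.5% against 33.8%. The share that fell is thus near the table's own. Log2 fold changes were below 0 in 22 of 27 members (81.5%), against 64.8% of the table, and on the TMM scale in 19, against 62.5%. The median log2 fold change was −0.14 over the members and −0.14 over the table. Changes of 1.5-fold were reached by 0 members that passed the test, against 3.73% of the table lower and 3.46% higher. At an unadjusted p under 0.05, 14 members were lower (51.9%, against 54.2% of the table) and 5 higher (18.5%, against 35.2%).

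The calls turned on the scale. On the TMM scale 0 members were lower, against 7.92% of the table, with 7 lower at an unadjusted p under 0.05 (25.9%, against 31% of the table), and 5 were higher, against 35% of the table. With the empty interval centred, 15 members were lower, against 53.2% of the table, and 1, MBNL3, was higher, against 24.1%. The 5 members called lower here were called lower on that scale too. A scale adds nearly the same amount to every gene, so the differences between members stay nearly the same on all 3.

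**Figure D1:**
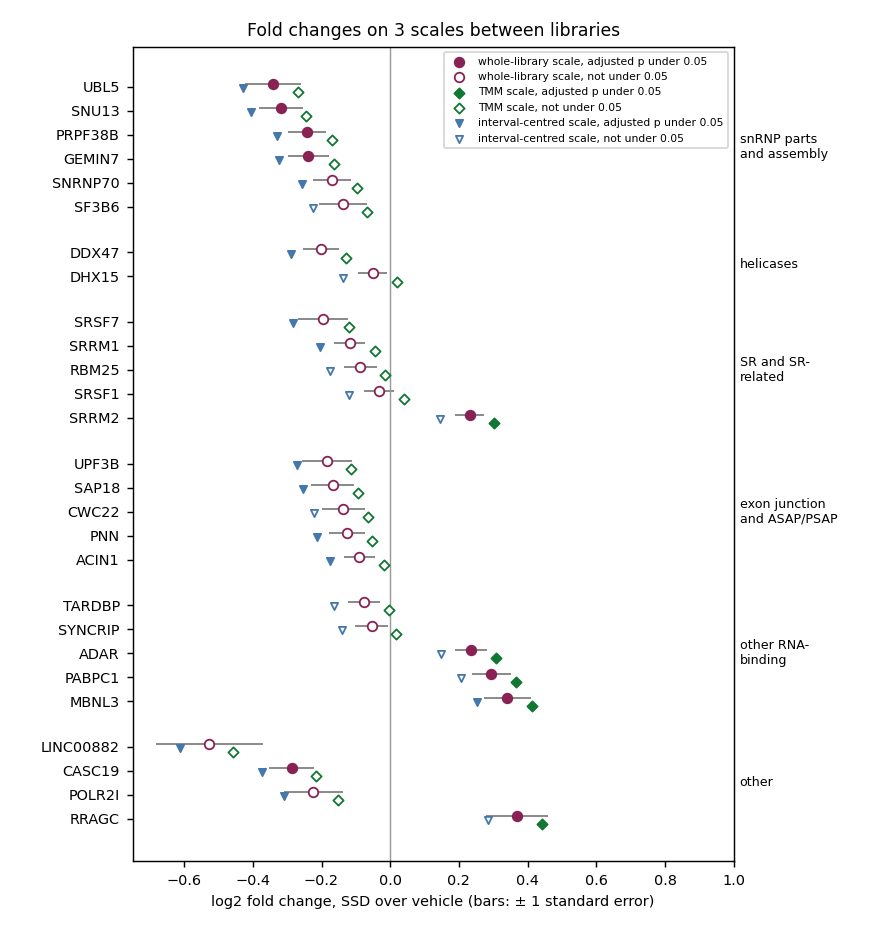
Log2 fold change of SSD over vehicle (horizontal axis) for the 27 genes (rows, by role) on the whole-library scale (circles, bars ± 1 standard error), the TMM scale (diamonds) and the interval-centred scale (triangles), with filled symbols for an adjusted p under 0.05. The scales move all genes together. On the whole-library scale 5 genes lie above 0.2 and the other 22 below 0. The gap between them is that of the whole table, which holds no gene between −0.0328 and 0.2065.

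The calls also changed when single libraries were left out. Without SSD replicate 2, 0 members were lower and 0 higher, against 7.19% and 16.9% of the table, and at an unadjusted p under 0.05 the members were 8 and 5, against 41.9% and 35.2%. Without vehicle replicate 2, 1 member was lower and 0 higher, against 7.01% and 15.4% of the table, and at the unadjusted cut 11 and 5, against 45.3% and 35.2%. The table's own counts thus shrank as well, and a fit on fewer libraries has less power to call a change. Whether a given library or the smaller number of libraries ended a call was not tested. No member changed direction when a library was left out. With limma on log2(TPM + 1) 0 members passed in either direction, against 5.46% of the table lower and 11.1% higher, and at an unadjusted p under 0.05 the members were 11 lower and 4 higher, against 40.3% and 33.3%. In TPM, which needs no test, the 3 SSD libraries lay below the 3 vehicle libraries for 15 members (44.2% of the table) and above them for 4 (32.2% of the table), and the groups overlapped for 8. An exact two-sided permutation test of 3 libraries against 3 cannot give a p below 0.1.

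**Figure D2:**
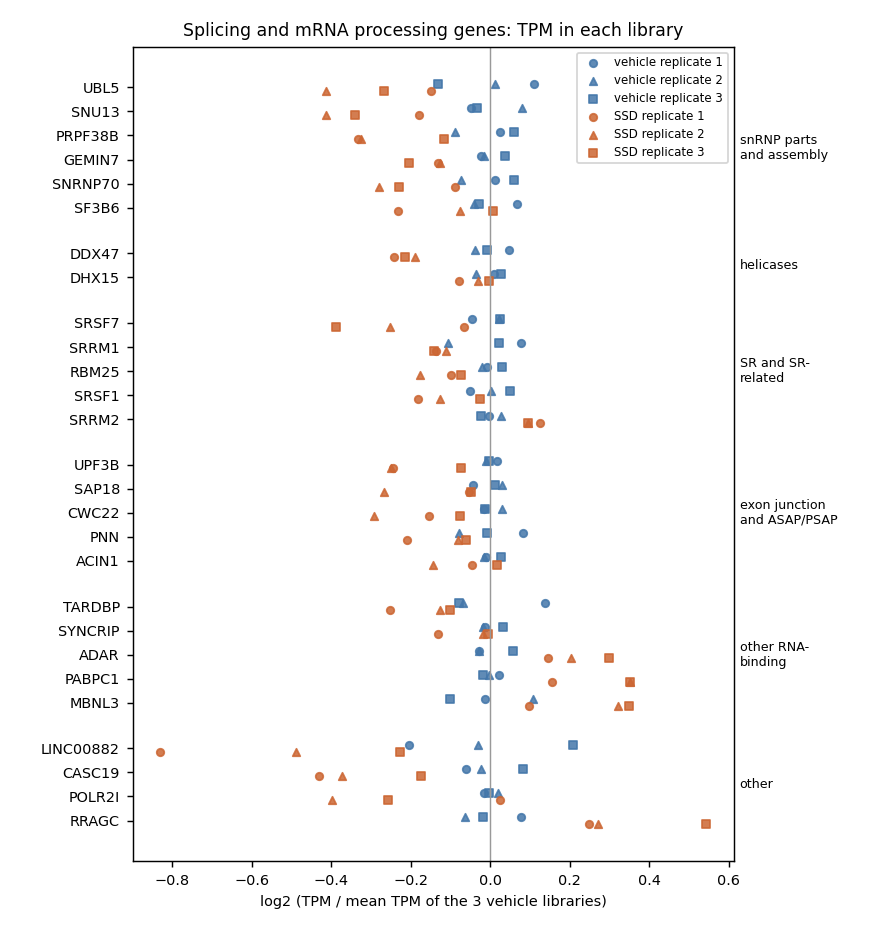
Log2 of each library's TPM over the mean of the 3 vehicle libraries (horizontal axis) for the 27 genes (rows, by role), with vehicle in blue and SSD in orange and one symbol per replicate number. The SSD points lie left of all vehicle points for 15 genes and right of them for 4 (RRAGC, PABPC1, ADAR and SRRM2), and LINC00882 and UBL5 show wide scatter in both groups.

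Among the 6 members grouped as snRNP proteins, assembly factors and factors related to them, 4 fell (19.5% of the table did) and 2 did not pass. All 6 had a log2 fold change below 0 (64.8% of the table). The textbook list of U1 and U2 factors, described further below, held 2 of the 6, with 0 called lower. That of tri-snRNP and Prp38 factors held 2, with 2 called lower. The other members of this set that fell were on no such list. They were placed here by their function, with earlier results of these data known, so the share of 4 in 6 depends on that grouping. The sets by role hold 2 to 6 genes each, and whether any of them differs from the table was not tested. These 4 falls held on the interval-centred scale and were lost on the TMM scale. SNU13 binds the 5′ stem-loop of U4 snRNA and also box C/D small nucleolar RNAs. Its TPM was 236, 257 and 238 with vehicle and 215, 183 and 193 with SSD, with all 3 SSD libraries under the lowest vehicle library. The log2 fold change was −0.32 ± 0.064 (adjusted p = 0.0134), and on the TMM scale −0.25 (adjusted p = 0.126). Dropping vehicle replicate 2 or 3 or SSD replicate 2 raised the adjusted p to between 0.0563 and 0.0877. SNU13 (chr22:41673930-41690504, minus strand, GRCh38) shares exon sequence on the opposite strand with C22orf46.

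UBL5 is a ubiquitin-like protein that binds a tri-snRNP component without being conjugated to it. Its TPM was 384, 359 and 325 with vehicle and 321, 267 and 296 with SSD, and the highest SSD library lay just under the lowest vehicle library. The log2 fold change of −0.34 ± 0.082 (adjusted p = 0.0339) was the largest fall among the members that passed, and TMM gave −0.27 (adjusted p = 0.176). The call was lost without vehicle replicate 1 or 2 or SSD replicate 2 (adjusted p 0.116 to 0.202). UBL5 (chr19:9827892-9830115, plus strand) has 4 annotated pseudogene copies, so its counts may be divided with them.

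PRPF38B carries a domain shared with the yeast splicing factor Prp38. It was measured at 52.2, 48.3 and 53.5 TPM with vehicle and at 40.7, 40.9 and 47.3 TPM with SSD, with the third SSD library close to the vehicle range. The log2 fold change was −0.24 ± 0.055 (adjusted p = 0.0254), and −0.17 on the TMM scale (adjusted p = 0.117). Leaving out vehicle replicate 1 or 3 or SSD replicate 1 or 2 also ended the call (adjusted p 0.0658 to 0.146). The gene lies at chr1:108692323-108701803 on the plus strand with no overlapping exon.

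GEMIN7 is part of the SMN complex, which loads Sm rings onto small nuclear RNAs. Its TPM was 111, 111 and 116 with vehicle and 103, 103 and 97.7 with SSD, a change of −10.2% in the mean with little spread inside either group. In counts the log2 fold change was −0.24 ± 0.059 (adjusted p = 0.0386), and −0.17 on the TMM scale (adjusted p = 0.337). It stood without SSD replicate 1 but not without any other single library (adjusted p 0.0684 to 0.219). GEMIN7 (chr19:45079195-45091524, plus strand) shares exon sequence with 2 genes on its own strand and 1 on the other.

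The 2 further members of this set did not pass. SNRNP70, the U1-70K protein of the U1 snRNP, gave 220, 207 and 227 TPM with vehicle and 205, 179 and 186 TPM with SSD. The groups did not overlap, and the log2 fold change was −0.17 ± 0.055 (adjusted p = 0.16). SF3B6, which sits at the branch point within the U2 snRNP, gave 302, 281 and 283 TPM with vehicle and 246, 274 and 290 TPM with SSD. Here the groups overlapped, with a log2 fold change of −0.14 ± 0.071 (adjusted p = 0.857). With the empty interval centred, SNRNP70 passed (adjusted p = 0.019) and SF3B6 did not (adjusted p = 0.0992).

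Neither helicase passed, and 1 of them had an unadjusted p under 0.05. DDX47, a DEAD-box protein known mainly from ribosomal RNA processing, gave 93.7, 88.4 and 90.1 TPM with vehicle and 76.7, 79.5 and 78.1 TPM with SSD. These groups were clearly apart, and its log2 fold change of −0.20 ± 0.052 lay just outside the threshold (adjusted p = 0.0505), with GEMIN7 just inside it at 0.0386. DHX15, the helicase that takes the spent spliceosome apart, gave 154, 149 and 156 TPM with vehicle and 145, 150 and 152 TPM with SSD. Its groups overlapped, and its log2 fold change of −0.05 ± 0.042 had the smallest standard error of the 27 (adjusted p = 1). On the TMM scale its sign turned, at 0.02.

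Of the 5 SR and SR-related proteins, SRRM2 rose and 4 did not pass, all 4 below 0 on the whole-library scale. SRRM2 is a large SR-related protein that scaffolds nuclear speckles. Its TPM was 195, 199 and 192 with vehicle and 213, 209 and 209 with SSD, groups that did not overlap. In counts the log2 fold change was 0.23 ± 0.043, the smallest adjusted p of the 27 (0.00953). In edgeR SRRM2 passed on the TMM scale (0.30, adjusted p = 0.00151) and did not with the empty interval centred (0.14, adjusted p = 0.0715). Nor did it pass without vehicle replicate 2 (adjusted p = 0.0723) or SSD replicate 2 (adjusted p = 0.0675). SRRM2 (chr16:2752329-2772538, plus strand) shares exon sequence with ELOB and SRRM2-AS1 on the other strand.

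The log2 fold changes of the 4 others ran from −0.20 to −0.03. SRSF7, an SR protein that shuttles between nucleus and cytoplasm, gave 225, 236 and 236 TPM with vehicle and 222, 195 and 178 TPM with SSD, a spread of 22.3 TPM (SD) between the SSD libraries against 6.24 TPM between the vehicle libraries. Its log2 fold change was −0.20 ± 0.072 (adjusted p = 0.257), and it passed without SSD replicate 1 (adjusted p = 0.0225). SRSF1, the founding SR protein, was the second most abundant member at 363, 376 and 389 TPM with vehicle and 331, 344 and 369 TPM with SSD. Its groups overlapped, and its log2 fold change was −0.03 ± 0.045 in counts and 0.04 on the TMM scale (adjusted p = 1 on both). RBM25, which binds exonic enhancers near 5′ splice sites, gave 86.7, 86.0 and 89.1 TPM with vehicle and 81.4, 77.2 and 82.9 TPM with SSD, groups that did not overlap, with a log2 fold change of −0.09 ± 0.048 (adjusted p = 1). SRRM1, a partner of SRRM2, had a log2 fold change of −0.12 ± 0.045 (adjusted p = 0.318).

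None of the 5 members of the exon junction complex and of the ASAP and PSAP complexes around it passed edgeR's test, 3 of them had an unadjusted p under 0.05 (54.2% of the table was lower at that cut), and all 5 were below 0 (64.8% of the table). UPF3B, which links the exon junction complex to nonsense-mediated decay, gave 22.9, 22.5 and 22.6 TPM with vehicle and 19.1, 19.1 and 21.5 TPM with SSD. The vehicle libraries differed by 0.229 TPM (SD) and the SSD libraries by 1.41 TPM, and the log2 fold change was −0.19 ± 0.073 (adjusted p = 0.34). CWC22, which escorts the complex's core helicase to the spliceosome, had a log2 fold change of −0.14 ± 0.064 (adjusted p = 0.625), and its TPM groups did not overlap. ACIN1, the scaffold of ASAP, gave 109, 108 and 111 TPM with vehicle and 106, 98.8 and 110.5 TPM with SSD, with groups that overlapped and a log2 fold change of −0.09 ± 0.045 (adjusted p = 0.831). PNN, the scaffold of PSAP, was at −0.13 and SAP18, which both complexes hold, at −0.17, and SAP18 passed without SSD replicate 1 (adjusted p = 0.0443). With the empty interval centred, 4 of the 5 passed as lower, all but CWC22, on a scale that calls 53.2% of the table lower.

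The 5 other RNA-binding proteins held 3 of the rises (33.8% of the table rose). PABPC1, the cytoplasmic poly(A)-binding protein, was the most abundant member. Its TPM was 657, 646 and 640 with vehicle and 721, 827 and 826 with SSD, so that the first SSD library lay between the vehicle libraries and the other SSD libraries. The log2 fold change was 0.29 ± 0.057 (adjusted p = 0.0118), 0.37 on the TMM scale (adjusted p = 0.00193) and 0.21 with the empty interval centred (adjusted p = 0.0522). Without vehicle replicate 2 or 3 or SSD replicate 2 it did not pass (adjusted p 0.0638 to 0.0687). PABPC1 has 13 annotated pseudogene copies, and its counts may be divided with them.

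ADAR, the adenosine deaminase that edits double-stranded RNA, gave 172, 172 and 182 TPM with vehicle and 194, 201 and 216 TPM with SSD. All SSD libraries were above all vehicle libraries, with a log2 fold change of 0.24 ± 0.046 (adjusted p = 0.0125). TMM gave 0.31 (adjusted p = 0.00146) and 0.15 with the empty interval centred (adjusted p = 0.0943), and the rise did not pass without vehicle replicate 2 (adjusted p = 0.0824) or SSD replicate 2 (adjusted p = 0.066). ADAR lies at chr1:154582057-154628013 on the minus strand with no overlapping exon.

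MBNL3, a muscleblind-like regulator of alternative splicing, was the least abundant member. It gave 8.36, 9.09 and 7.87 TPM with vehicle and 9.03, 10.6 and 10.8 TPM with SSD, and the first SSD library fell inside the vehicle range. The log2 fold change in counts was 0.34 ± 0.068 (adjusted p = 0.013), 0.41 on the TMM scale (adjusted p = 0.00244) and 0.25 with the empty interval centred (adjusted p = 0.0448). MBNL3 was the member called higher on all 3 scales, although its TPM groups overlapped and its adjusted p was 0.0655 to 0.0688 without vehicle replicate 2 or 3 or SSD replicate 2. The gene lies at chrX:132369317-132489968 on the minus strand.

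TARDBP and SYNCRIP did not pass. TARDBP encodes TDP-43, which represses cryptic exons, and gave 162, 140 and 139 TPM with vehicle and 123, 135 and 137 TPM with SSD. Its groups did not overlap, but the first vehicle library stood above the others, and the log2 fold change was −0.08 ± 0.047 (adjusted p = 1). SYNCRIP, also called hnRNP Q, had a log2 fold change of −0.05 ± 0.047, and 0.02 on the TMM scale (adjusted p = 1 on both).

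The 4 remaining members are annotated with splicing or processing terms but are not known as splicing factors. CASC19 and LINC00882 are long noncoding RNAs that carry the term for mRNA splicing via the spliceosome in the deposited annotation. How they came by this term was not examined. CASC19 gave 65.2, 66.9 and 72.0 TPM with vehicle and 50.5, 52.5 and 60.2 TPM with SSD, with no overlap. It fell by 0.29 ± 0.065 on the log2 scale (adjusted p = 0.0253), and on the TMM scale the adjusted p was 0.0668. The fall did not pass without vehicle replicate 2 or 3 or SSD replicate 1 or 2 (adjusted p 0.0797 to 0.137). The log2 fold change in these fits was −0.30 to −0.24. LINC00882 had the lowest log2 fold change of all 27, −0.53 ± 0.155, and did not pass (adjusted p = 0.098). Its call moved with the processing, since it passed without SSD replicate 3 (adjusted p = 0.00883) and with the empty interval centred (adjusted p = 0.0363). It gave 44.5, 50.2 and 59.2 TPM with vehicle and 28.8, 36.5 and 43.8 TPM with SSD, the widest spread between libraries relative to its level.

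RRAGC is a Rag GTPase that relays amino acid supply to mTORC1. It gave 18.5, 16.8 and 17.3 TPM with vehicle and 20.8, 21.1 and 25.5 TPM with SSD, with no overlap and the third SSD library highest. The log2 fold change was 0.37 ± 0.090 (adjusted p = 0.0361), 0.44 on the TMM scale (adjusted p = 0.00853) and 0.28 with the empty interval centred (adjusted p = 0.103). It passed without SSD replicate 1 but not without any other single library (adjusted p 0.0541 to 0.178). RRAGC (chr1:38838198-38859823, minus strand) shares exon sequence with 1 gene on its own strand. POLR2I, a small subunit of RNA polymerase II, gave 212, 217 and 214 TPM with vehicle and 218, 163 and 179 TPM with SSD. One SSD library was thus above all vehicle libraries, and the log2 fold change of −0.22 ± 0.085 did not pass (adjusted p = 0.295). Without CASC19, LINC00882 and RRAGC, 4 of 24 members fell and 4 rose.

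The 3 SSD libraries were not alike across the 22 members below 0. SSD replicate 3 had the highest TPM of the 3 for 14 of them. SSD replicate 1 was the lowest for 10 and yet the highest for 5, namely POLR2I, SNRNP70, SNU13, SRSF7 and UBL5. The median log2 TPM of the 27 genes over their vehicle means was −0.13, −0.15 and −0.07 in SSD replicates 1, 2 and 3, and over all genes of the table −0.11, −0.13 and −0.08.

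Gene length moved with direction across the whole table. Of the 152 genes under 1000 bases, 92.1% had a log2 fold change below 0 and 36.8% were called lower, whereas of the 549 genes of 3000 bases and over 50.5% were below 0 and 47% were called higher. The 4 members under 1000 bases are UBL5, POLR2I, SF3B6 and SNU13, and all 4 were below 0, 2 of them called lower. Between 1000 and 3000 bases, 10 of 12 members were below 0 (83.3%, against 74.1% of the table's genes of that length). At 3000 bases and over, 8 of 11 members were below 0 (72.7%, against 50.5%). Among these 11, 3 were called higher, namely SRRM2, ADAR and MBNL3, and 2 lower, PRPF38B and CASC19. From short to long, the median log2 fold change was −0.27, −0.12 and −0.12 in the members, and −0.21, −0.18 and −0.05 in the table. The part of length in these results was not tested.

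**Figure D3:**
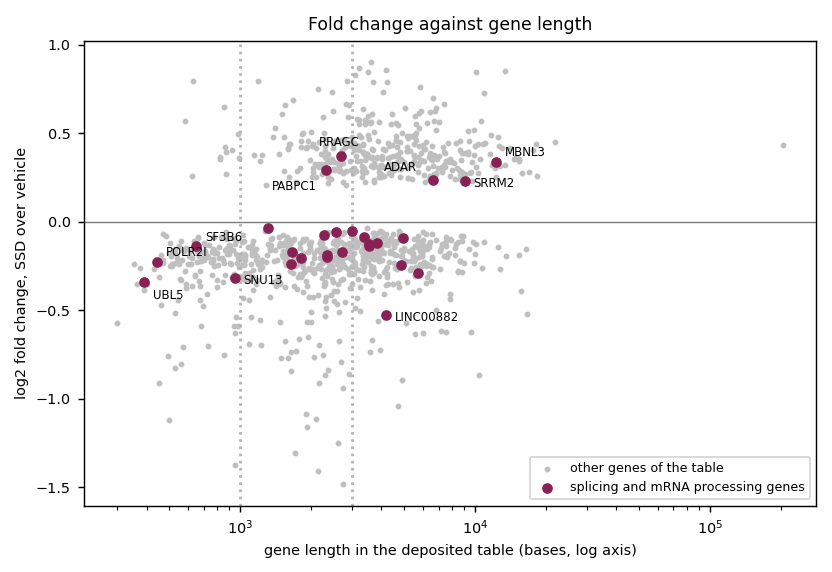
Log2 fold change of SSD over vehicle against gene length in the deposited table (log axis, bases) for the 27 members (purple) and the other genes of the table (grey), with dotted lines at 1000 and 3000 bases. No gene lies between −0.0328 and 0.2065, and the 4 members under 1000 bases all lie below 0.

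Count and TPM of a gene can also part from each other, since TPM divides by the transcript length estimated in each library. The ratio of count to TPM, set on the whole-library scale, was therefore compared between groups for the 1029 genes with at least 5 TPM in every library, a measure chosen after the data were seen. For SRRM2 it was 43.3, 41.3 and 44.0 counts per TPM with vehicle and 44.6, 48.5 and 47.1 with SSD, a rise of 9.15% in the mean with no overlap. This lies beside a rise of 7.49% in TPM, so that SRRM2 changed more in counts than in TPM. GEMIN7 moved the other way, from 7.97, 8.09 and 7.82 to 7.69, 7.24 and 7.61 counts per TPM, also with no overlap. CASC19 was the second member above its vehicle range in all SSD libraries, at 42.5, 42.7 and 41.7 against 41.2, 41.4 and 41.1. Such non-overlap occurred in 5.83% of the table's genes upwards and in 4.86% downwards, against 2 and 1 of the 27. In limma's test 0 of the 1029 genes passed (0%), and 72 had an unadjusted p under 0.05 (7%). Among these 72 were 4 members, CASC19, GEMIN7, SRRM2 and SRSF1, each with an adjusted p of 0.538.

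**Figure D4:**
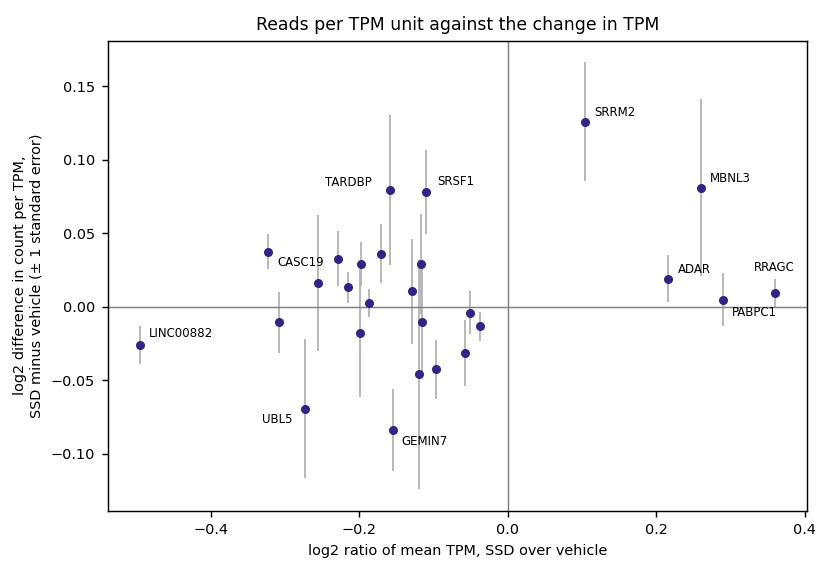
Log2 difference in count per TPM, SSD minus vehicle (vertical axis, ± 1 standard error), against the log2 ratio of mean TPM (horizontal axis) for the 27 genes. SRRM2 lies highest at 0.13 and GEMIN7 lowest at −0.08, each about 3 standard errors from 0.

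Textbook lists give the wider splicing machinery around the members. Their names were taken whether or not the gene had been tested, so a share of names and a share of tested genes have unlike bases. The table holds 9.74% of the 11289 genes tested. Of 260 names on lists of spliceosomal, splicing-regulatory, mRNA export and 3′ end processing factors, 24 were in the table (9.23%), 18 of them members. Of the 6 others, SARNP, an mRNA export factor, fell (−0.19 ± 0.049, adjusted p = 0.0442) and RBM43 rose (0.86 ± 0.177, adjusted p = 0.015) from 1.76 ± 0.479 to 2.94 ± 0.308 TPM (SD, n = 3). NXT1 (−0.33, adjusted p = 0.0505), LUC7L (−0.22), FIP1L1 (−0.10) and DHX9 (−0.07) did not pass. None of 13 splicing kinases and none of 13 capping and m6A factors was in the table, and of 24 decay and exosome names it held UPF3B and EXOSC2 (−0.23, adjusted p = 0.146). For a factor that is not in the table no value was analysed here. The 5 Sm core proteins set aside were all below 0, with 3 called lower (SNRPG at −0.51, SNRPB at −0.21 and SNRPD1 at −0.19), and 1, SNRPG, called lower on the TMM scale. Whether the Sm core and the members differ was not tested.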

How the data were processed

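RNA-seq libraries were made by the authors from poly(A) RNA of AGS cells, 3 with vehicle and 3 with SSD, and processed on a commercial cloud platform. The build is GRCh38.p13 per the submitters' processing notes, and the aligner and counting program are not given in the sources used here. The authors deposited an estimated count (an expected count, here rounded) and TPM per gene and library. Gene lengths and GO and KEGG terms came with the deposited table. The authors' fold changes, p-values and adjusted p-values were not used, except that their ratio gave the number of genes tested, 11289, and genes outside the table were taken as having larger p.

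Counts were tested with edgeR 4.0.16 (R 4.3.3, filterByExpr, group as the only term), with limma 3.58.1 and DESeq2 1.42.0 as alternatives. The whole-library scale is the median log2 ratio of count to TPM per library, over genes averaging 50 counts or more and with at least 1 TPM. Coordinates, overlaps and pseudogenes came from GENCODE release 29, and all 27 members matched by Ensembl identifier. Beside UBL5 and PABPC1, pseudogene copies are annotated for SAP18 (3), SRRM1 (2), TARDBP (2) and SRSF1 (1). Beside GEMIN7 and RRAGC, the genes DDX47, PABPC1, SRSF1, SYNCRIP and TARDBP each share exon sequence with 1 gene on their own strand. Coordinates of CASC19 and PABPC1 are not reported here, and whether counting used strand is not stated.

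Every value is given for the members called on the whole-library or TMM scale and for KEGG spliceosome members. Members, lists and rules were chosen with earlier results of these data known.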

Additional observations from a re-analysis of the deposited data

How the results depend on the processing

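Members called lower numbered 5, and 0 with TMM, with DESeq2's size factors and with limma on log2(TPM + 1) or log2(TPM + 0.1), 2 with table totals, with the DESeq2 Wald test and with the replicate block, 15 with the empty interval centred, and 14 with p adjusted over the table alone. Leaving out each library gave 0 to 5. Members called higher numbered 5, and 0 with the block and with limma, 1 with the interval centred, and 0 to 5 over the left-out libraries. In the table, 214 genes were lower, against 87 with TMM, 86 with size factors, 126 with totals, 113 with Wald, 94 with the block, 60 and 52 with limma, 585 with the interval centred, 580 adjusted over the table alone, and 77 to 287 over the left-out libraries. The 371 higher became 194 with the block, 122 and 117 with limma, and 169 to 382. The members' median log2 fold change was −0.14, and −0.0647 with TMM, −0.0452 with size factors and with Wald, −0.0828 with totals and −0.22 with the interval centred. LINC00882, not called, passed with the block (adjusted p = 0.0424) and with p adjusted over the table alone (0.00954). The filters kept these counts within 1.5 times. The cause of these shifts was not tested.

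Signs turned, in members that did not pass, for DHX15 (0.0209 with TMM, 0.0405 with size factors, 0.0406 with Wald and 0.0024 with totals), SRSF1 (0.0391, 0.0586, 0.0587 and 0.0207 in that order), SYNCRIP (0.0174 with TMM, 0.0371 with size factors and with Wald), ACIN1 (0.0021), RBM25 (0.0049) and TARDBP (0.0157 and 0.0158), the last 3 with size factors and Wald. Over 1029 genes, same-numbered libraries did not deviate together (correlations −0.071, 0.013 and 0.011). A correlation over all genes can miss a pairing that shows in some of them. Whether the replicate numbers pair the libraries is therefore not settled, and the block costs residual degrees of freedom. The table holds only genes chosen on this contrast, so the scale between libraries cannot be fixed from unchanged genes.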
